A study of Drosophila melanogaster with 5 samples.

Results

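Distal intergenic H3K18ac peaks are stretches of acetylated chromatin that lie in no gene and away from transcription starts. They were taken as the rows that the deposited peak table annotates as distal intergenic, and there were 303 of them among 2626 listed peaks. Another 1724 listed peaks were annotated as promoter and 501 as intronic. H3K18ac was mapped by Cut&Run, which cuts and releases the DNA around an antibody-bound mark, in wing discs of male and female w1118 larvae of the third instar. The etomoxir group held 2 libraries of discs cultured for 2 h with 500 µM etomoxir. The control group held 3 libraries without etomoxir, of which 2 came from discs cultured for 2 h and 1 from discs dissected directly. The control mean thus mixes cultured and uncultured discs, and a part of culture in a difference cannot be told apart. Every listed peak had a false discovery rate under 0.05 between these groups in the authors' test, so "fell" and "rose" are their calls, and peaks that did not pass were not analysed here. The table gives 1 mean per group and no value per library. The spread between libraries and the depth of each are therefore not known from it, and no new test was fitted.

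The wing disc is the larval epithelium from which the adult wing and much of the thorax form. Acetylation of histone H3 at lysine 18 is laid down by the CBP and p300 family of acetyltransferases (Nejire in flies) and marks active promoters and enhancers. Enhancers of patterning genes often lie in the DNA between genes, several to many kilobases from the start they act on, and the nearest start need not belong to the gene they regulate. Etomoxir inhibits carnitine palmitoyltransferase 1, which brings long-chain fatty acids into mitochondria for beta oxidation, a source of acetyl-CoA. Levels are given as group means of normalised reads or their log2, and a difference is the etomoxir mean minus the control mean on the log2 scale.

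The DNA under 7 of these peaks is shown because they carry the main patterns of the data, namely decreases beside patterning genes and increases in AT-rich DNA toward the centromeres. Each is the central 300 bases of the peak on the forward strand of dm6, read from the RefSeq release of the genome. Capitals mark a match, on either strand, to 1 of 6 motifs searched, which were GAGAG (GAGA factor), GGAATG (Scalloped), TGACAG (Homothorax), CAGGTAG (Zelda), AACCGGTT (Grainyhead) and CACGTG (the E-box). The first 5 fell in etomoxir and are named after a neighbouring protein-coding gene, which is not always the nearest or the assigned one. The dally window (chr3L:8822709-8823008) and the hry window (chr3L:8657349-8657648) come from the peaks with the largest decreases beside these genes. The hry peak lies 6293 bases from Pex7, its assigned gene, and 18066 bases from hry. The salm window (chr2L:11399065-11399364), the dpp window (chr2L:2466873-2467172) and the Wnt10 window (chr2L:7356873-7357172) follow. The salm peak lies 34830 bases from salm and 25311 bases from salr. The last pair rose in etomoxir, near CG40228 (chr3L:27008631-27008930) and near CkIIalpha (chr3L:23107064-23107363). The CG40228 peak lies in the 5 Mb at the centromeric end of the arm, and the CkIIalpha peak lies just outside that stretch.
dally: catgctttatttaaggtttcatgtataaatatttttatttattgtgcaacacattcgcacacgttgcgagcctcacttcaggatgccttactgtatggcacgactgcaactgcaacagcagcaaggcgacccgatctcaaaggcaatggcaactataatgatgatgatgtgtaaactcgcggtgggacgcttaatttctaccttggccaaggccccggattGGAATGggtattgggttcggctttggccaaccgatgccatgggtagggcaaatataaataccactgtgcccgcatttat
hry: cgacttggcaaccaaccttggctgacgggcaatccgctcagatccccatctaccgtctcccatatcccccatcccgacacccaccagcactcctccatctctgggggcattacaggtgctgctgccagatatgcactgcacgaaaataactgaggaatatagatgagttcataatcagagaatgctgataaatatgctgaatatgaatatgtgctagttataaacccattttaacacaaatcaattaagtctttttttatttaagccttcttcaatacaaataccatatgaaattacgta
salm: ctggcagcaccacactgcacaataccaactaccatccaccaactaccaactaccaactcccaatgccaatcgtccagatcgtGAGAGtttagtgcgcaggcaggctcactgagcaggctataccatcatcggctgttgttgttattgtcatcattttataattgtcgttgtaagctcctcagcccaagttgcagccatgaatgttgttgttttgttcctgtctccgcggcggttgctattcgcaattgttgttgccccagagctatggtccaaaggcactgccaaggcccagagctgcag
dpp: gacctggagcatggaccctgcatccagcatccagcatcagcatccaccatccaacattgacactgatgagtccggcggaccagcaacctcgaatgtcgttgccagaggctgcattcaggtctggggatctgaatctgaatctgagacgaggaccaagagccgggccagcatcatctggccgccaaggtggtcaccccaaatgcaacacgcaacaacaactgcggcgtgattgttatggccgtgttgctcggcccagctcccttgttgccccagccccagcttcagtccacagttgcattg
Wnt10: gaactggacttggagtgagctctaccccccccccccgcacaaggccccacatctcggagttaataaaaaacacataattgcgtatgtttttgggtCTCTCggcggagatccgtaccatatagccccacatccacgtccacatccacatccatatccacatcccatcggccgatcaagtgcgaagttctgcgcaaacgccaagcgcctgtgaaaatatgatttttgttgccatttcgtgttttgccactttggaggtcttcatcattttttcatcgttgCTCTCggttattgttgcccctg
CG40228: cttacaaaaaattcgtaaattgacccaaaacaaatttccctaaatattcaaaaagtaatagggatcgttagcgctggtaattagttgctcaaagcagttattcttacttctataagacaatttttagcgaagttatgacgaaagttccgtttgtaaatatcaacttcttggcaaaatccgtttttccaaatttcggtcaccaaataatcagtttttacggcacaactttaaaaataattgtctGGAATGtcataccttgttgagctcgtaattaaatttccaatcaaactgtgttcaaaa
CkIIalpha: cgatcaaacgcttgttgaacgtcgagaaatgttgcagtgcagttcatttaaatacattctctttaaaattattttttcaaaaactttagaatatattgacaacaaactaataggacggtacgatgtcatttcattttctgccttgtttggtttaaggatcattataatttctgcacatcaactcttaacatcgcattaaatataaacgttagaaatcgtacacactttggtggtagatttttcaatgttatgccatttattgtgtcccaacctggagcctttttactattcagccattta
GC content was 46.0% in the dally window, 42.0% in the hry window, 50.3% in the salm window, 57.7% in the dpp window and 49.7% in the Wnt10 window. It was 31.7% in the CG40228 window and 32.3% in the CkIIalpha window. These were chosen to show increases in AT-rich DNA, so their low GC content is not a result. GAGAG matched once in the salm window and 2 times in the Wnt10 window, and GGAATG once in the dally window and once in the CG40228 window. The hry, dpp and CkIIalpha windows held none of the 6 motifs.

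The annotation was checked against the reference genes. The distal peak closest to its assigned start lay 3011 bases away, and the farthest promoter peak 2998 bases away, so the annotation parts the classes at 3 kb. Of the 303 peaks, 277 overlapped no gene of the reference and 26 overlapped 1 or more, and 0 overlapped a protein-coding gene. The overlapped entries were mostly insertions of transposable elements, which the reference lists as genes. Of the 246 peaks that fell, 241 overlapped none, so most of the 26 were peaks that rose. With all transcripts of the reference, those of transposable elements included, 257 peaks were over 3000 bases from every start and 46 were closer to one.

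H3K18ac was lower in etomoxir at most of the listed distal intergenic peaks. It fell at 246 of the 303 (81.2%, Wilson 95% interval 76.4 to 85.2) and rose at 57 (18.8%, 14.8 to 23.6). Of all listed peaks, 83.5% were lower and 16.5% higher in etomoxir, so the split of the distal peaks was close to that of the whole list. Intronic peaks were lower at 96.8% and promoter peaks at 79.9%. Wilson intervals here cover counting error over peaks only and not the spread between discs.

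The decreases were deep. At the 246 distal peaks that fell, the median level was 30.9 normalised reads in etomoxir and 85.6 in control. On the log2 scale the group medians were 4.95 in etomoxir and 6.42 in control, and the median difference was -1.46 (95% interval of the median over peaks, -1.51 to -1.34). Differences ran from -3.20 to -0.55, with quartiles of -1.82 and -1.15. The level fell by at least 1 on the log2 scale, at 215 of the 246 peaks (87.4%), and at 68.9% of all listed peaks that fell. These 215 were 71.0% of the 303 distal peaks, and 57.5% of all 2626 listed peaks were lower by at least 1.

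**Figure D1:**
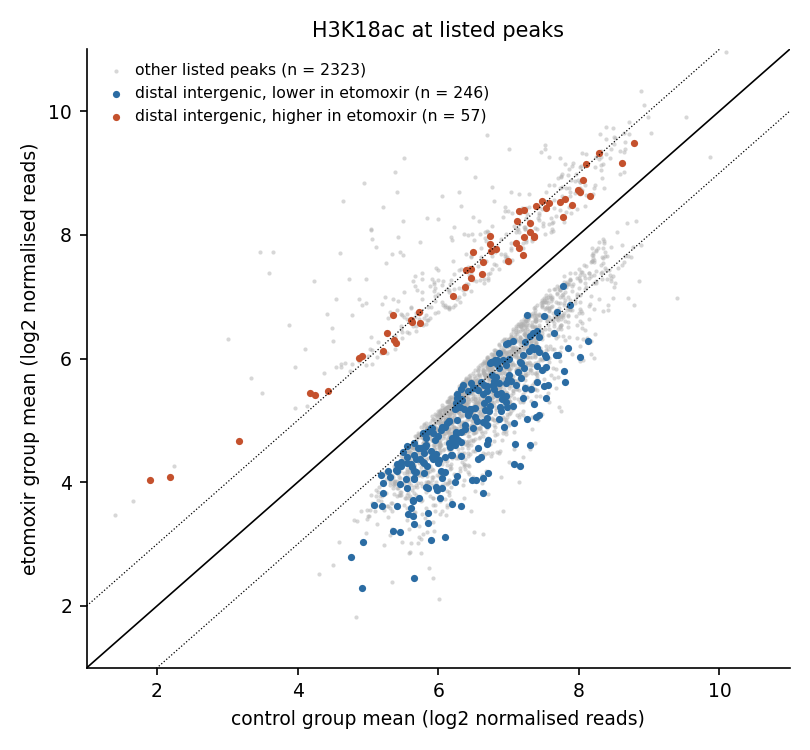
Etomoxir group mean (vertical axis) against control group mean (horizontal axis) of each listed peak, both as log2 normalised reads. Blue points are the 246 distal intergenic peaks lower in etomoxir, red points the 57 higher, and grey points the 2323 other listed peaks; the solid line marks equal means and the dotted lines a difference of 1. Most blue points lie below the lower dotted line, and the red points lie close to the upper one.

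Decreases at the other classes were smaller in the median. The median difference of lower peaks was -1.46 at distal sites, -1.27 at introns and -1.12 at promoters, and 87.4%, 76.3% and 63.4% of these peaks fell by at least 1. Distal peaks that fell were also lower in control (6.42) than promoter peaks that fell (6.69), and narrower, with a median width of 774 bases against 952 bases. Intronic peaks that fell were close to the distal ones in both, with 6.47 and 798 bases. A peak with few reads has to change more to be listed: the smallest listed decrease was -0.81 in the lowest quartile class of the control mean and -0.39 in the highest. Within these 4 classes, from low to high control means, the median of distal peaks was -1.48, -1.45, -1.37 and -1.52, beside -1.37, -1.14, -1.12 and -1.0 at all other lower peaks. By width, from narrow to wide, the distal medians were -1.49, -1.49, -1.37 and -1.18, and the others -1.42, -1.24, -1.11 and -0.92. The distal median was thus the deeper in each class, and the distance between the medians was least among the weakest and narrowest peaks. Of the 1948 other lower peaks 1377 were promoter peaks, and intronic peaks alone were not compared by class. No test of this difference was made, since the table holds only peaks that passed.

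**Figure D2:**
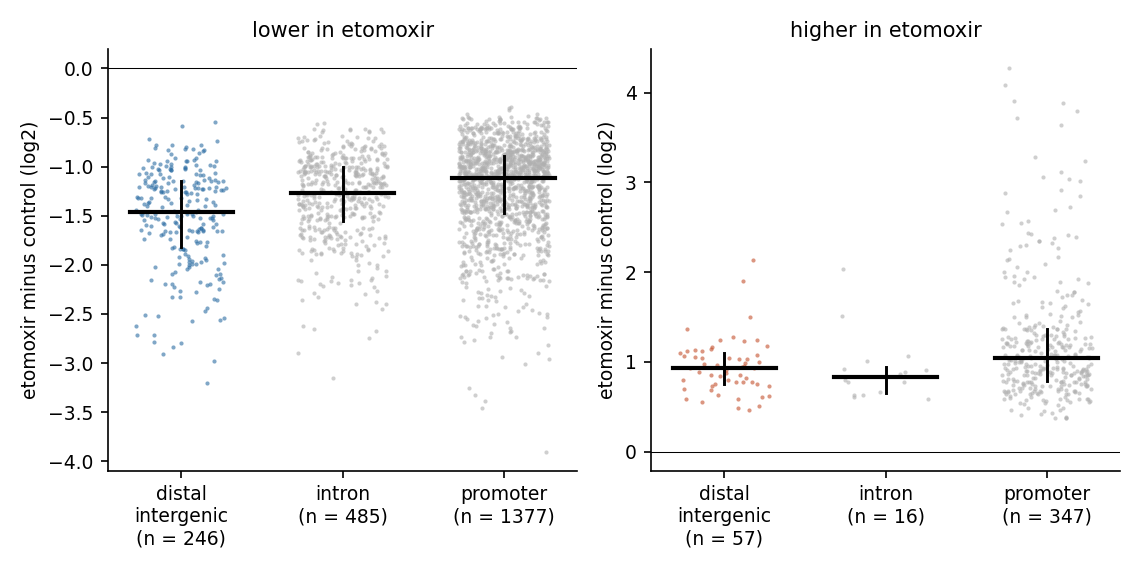
Difference between etomoxir and control group means (log2) of each listed peak, for peaks lower (left) and higher (right) in etomoxir, by annotation. Thick bars mark the median and thin bars the quartiles. Distal intergenic peaks that fell have the lowest median, -1.46, and those that rose have a median of 0.93.

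The peaks with the largest decreases lay in a few intergenic regions, and their assigned genes were Su(z)2, Pex7, CG15258, CG13323, dally and a noncoding RNA gene. The deepest, assigned to Su(z)2, a gene related to the Polycomb group, was at 5.50 normalised reads in etomoxir and 50.6 in control, a difference of -3.20. A second Su(z)2 peak had 14.2 reads in etomoxir and 99.0 in control (-2.80), and one assigned to CG13323, at the other end of that gap between genes, 19.6 in etomoxir and 135 in control (-2.79). These 3 belong to a run of 5 lower peaks between Su(z)2 and CG13323.

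Of the same 8 peaks, a pair was assigned to Pex7, the receptor that imports proteins into peroxisomes. These had 8.63 reads in etomoxir and 68.1 in control (-2.98), and 12.2 in etomoxir and 79.9 in control (-2.71). Both lie between Pex7 and hry (hairy, a transcriptional repressor that patterns bristles and embryonic segments), in a run of 7 lower peaks that extends to both sides of hry. The peak of that run nearest to the 5′ side of hry had the highest level, 78.2 reads in etomoxir and 280 in control (-1.84). The peak assigned to CG15258 had 19.2 reads in etomoxir and 144 in control (-2.91). The peak assigned to lncRNA:CR44308, with 8.34 reads in etomoxir and 59.7 in control (-2.84), lies 4511 bases from drm, which encodes a zinc finger protein of leg development.

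The distal peaks were assigned to 212 genes, of which 156 had 1 peak and 56 had 2 or more. Lower peaks were assigned to 174 genes and higher peaks to 38. No gene had both (0 of 212), and the 56 genes with several peaks therefore each moved in 1 direction. Of all listed peaks 83.5% were lower, and the same count was not made for the genes of all listed peaks. Peaks of 1 gene also share their position, which moved with direction, and its part was not tested. Noncoding RNA genes were assigned 88 peaks and protein-coding genes 200. The assigned gene was one of the direct neighbours of its peak at 245 peaks (80.9%).

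By assigned gene, the 220 transcription factor and signalling genes of the developmental lists accounted for 27 distal peaks (8.91%) and for 8.22% of the other listed peaks. All 27 fell, and belonged to 17 genes. Of the 191 other listed peaks assigned to these lists, 190 fell. Among the transcription factors, the homeodomain proteins en and ems had 5 and 2 peaks and the POU factor vvl 2, while B-H2, eyg, kni, mirr and tsh had 1 each. Among the signalling genes, dally had 4 peaks, Wnt10 had 2, and Ser, ex, fj, kek1, upd1, upd3 and vn had 1 each. The list symbols Dl, d and ban did not match the reference and were left out, and a lower peak beside Delta (-0.99) is therefore in none of these counts or those that follow. The transcription factor peaks had a median difference of -1.56, and the signalling peaks of -1.85. None of the 19 chaperone genes had a distal peak (0), and of 92 ribosomal protein genes 1 had a single peak, which rose by 1.0. These were 0% and 0.33% of the distal peaks, close to the 0.215% and 0.387% of the other listed peaks.

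Many more distal peaks lay beside a developmental gene than were assigned to one. Taking the nearest protein-coding gene on either side, 87 of the 246 distal peaks that fell (35.4%, 29.7 to 41.5) had a listed developmental gene as a neighbour, and 0 of the 57 that rose (0%, up to 6.31%). The 87 peaks that fell lay beside 46 genes. The table assigned 27 of these peaks to a listed gene and 60 to another gene, which was a noncoding RNA gene for 38 of the 60, a protein-coding gene for 21 and a tRNA gene for 1. By the same measure, with overlapped genes counted too, 28% of lower intronic peaks (24.2 to 32.2) and 16.3% of lower promoter peaks (14.5 to 18.4) had a listed gene. Among peaks that rose, the share was also low, at 3.75% of promoter peaks (13 of 347) and 6.25% of intronic ones (1 of 16).

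A gene with a wide flank has more room for distal peaks, so the same share was taken over DNA. Of the bases outside protein-coding genes and over 3000 bases from every start, 10.5% had a listed gene as a neighbour, and 16.0% outside the 5 Mb next to the centromeric ends and chromosome 4. Outside those stretches, 83 of 234 lower distal peaks (35.5%) did. The share of peaks was above the share of bases under both counts. Several peaks often lay beside 1 gene, as 7 beside en and 6 beside hth, so the peaks are not independent counts. The part of flank width in the share was not tested. The lists were chosen with earlier results of these data known, and they hold the genes that the paper names for their lost peaks. This comparison is therefore not independent of the data. The gaps between protein-coding genes that held the 87 peaks had a median length of 35991 bases, against 31406 bases for the 159 other lower distal peaks. The median difference was -1.57 (-1.74 to -1.40) at the 87 peaks and -1.37 (-1.48 to -1.26) at the other 159. These intervals overlap, and whether acetylated distal DNA in general lies beside such genes was not tested, since unlisted peaks were not analysed here.

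**Figure D3:**
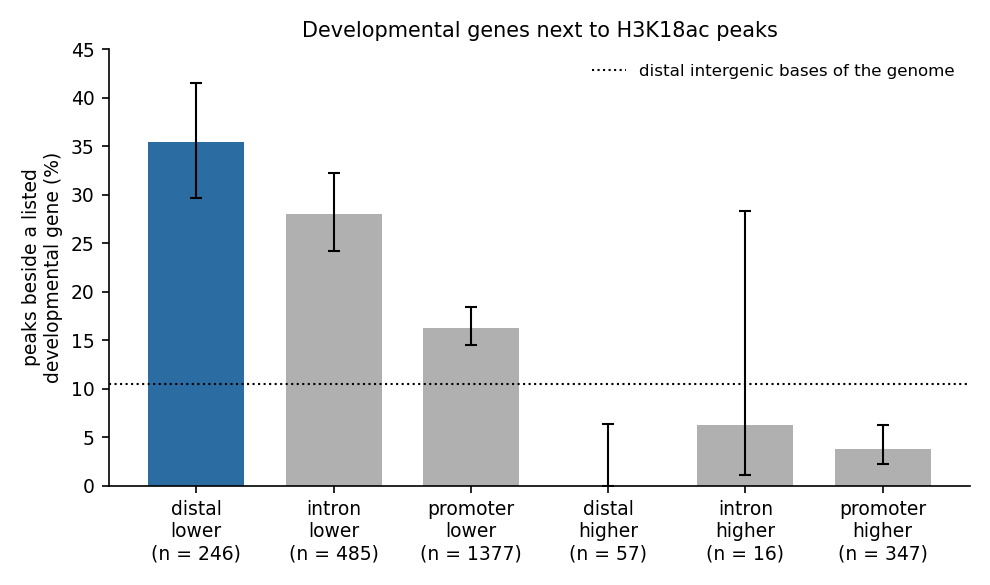
Share of listed peaks whose nearest protein-coding gene on either side, or overlapped gene, is on the developmental lists, by annotation and direction; bars are percentages and error bars 95% Wilson intervals. The dotted line marks the 10.5% of distal intergenic bases that have such a neighbour. The share is 35.4% at distal peaks that fell and 0% at distal peaks that rose. It is also low at promoter (3.75%) and intronic (6.25%) peaks that rose. Most distal peaks that rose lie toward the centromeres, and the lists were chosen with earlier results of these data known.

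The neighbouring genes described next were chosen after their values were seen, mostly for having several peaks. The signalling genes come first. Upstream of dally, which encodes a glypican that shapes Dpp and Wingless gradients, 4 peaks stood within 3995 bases. Their levels were 49.9, 30.9, 18.3 and 24.3 normalised reads in etomoxir, and 132, 135, 65.8 and 159 in control, with differences of -1.40, -2.13, -1.85 and -2.71. The peak closest to the dally start, which is printed above, fell the most.

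Wnt genes shared a cluster of decreases on 2L. A peak of 2059 bases between wg (the Wnt ligand Wingless) and Wnt6 had 47.5 reads in etomoxir and 189 in control (-1.99). A pair between Wnt6 and Wnt10 had 11.2 and 16.8 reads in etomoxir and 47.5 and 66.7 in control, with differences of -2.09 and -1.99. The 3 peaks thus fell to nearly the same degree at levels that differed severalfold.

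Beside dpp, the BMP ligand whose imaginal disc enhancers are known to lie downstream of its coding region, 2 peaks fell, and the table assigned neither to dpp. The peak assigned to a tyrosine tRNA gene (chr2L:2466427-2467617) had 38.6 reads in etomoxir and 164 in control (-2.09). The peak assigned to lncRNA:CR45286 (chr2L:2481316-2482100) had 25.6 reads in etomoxir and 77.7 in control (-1.60). Both lie between dpp and its neighbour Slh.

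The JAK/STAT ligand gene upd3 had 5 neighbouring peaks. Between CG15059 and upd3, 4 peaks had 10.9, 24.6, 24.6 and 46.9 reads in etomoxir, and 49.9, 103, 136 and 182 in control. Their differences were -2.19, -2.07, -2.47 and -1.96. The fifth, between upd3 and its paralogue upd1, had 34.1 reads in etomoxir and 85.6 in control (-1.33), a smaller decrease than that of any of the other 4.

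Other pathway genes also had neighbouring peaks, and Ser and ex had a single one each. Ser, a Notch ligand, had one of the highest control levels among lower distal peaks, with 65.3 reads in etomoxir and 258 in control (-1.98). ex, an upstream regulator of Hippo signalling, had 66.3 in etomoxir and 209 in control (-1.66). Beside sty, the gene of the receptor tyrosine kinase antagonist Sprouty, 3 peaks had differences of -1.77, -2.54 and -1.50. They lie between Ids and sty, nearer to Ids, and none was assigned to sty.

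Among transcription factors, the gap between the spalt genes salr and salm, zinc finger factors of wing patterning that share regulatory DNA, held 4 lower peaks. All 4 were assigned to lncRNA:CR43681, a noncoding RNA gene inside the gap. Their levels were 23.6, 14.7, 20.5 and 40.2 reads in etomoxir and 94.4, 63.1, 64.4 and 81.0 in control, and their differences -2.0, -2.10, -1.65 and -1.01. The peak closest to salm changed the least.

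Beside en, which specifies posterior compartments, 7 peaks fell, by -2.51 to -1.26, and 6 of them formed a run of 23822 bases between en and tou. Added up over the 7 peaks, the levels were 155 reads in etomoxir and 559 in control. The gene of the homeodomain cofactor Homothorax, hth, had 6 neighbouring peaks and none assigned to it (0). They ranged from -1.81 to -0.87 and summed to 179 reads in etomoxir and 410 in control. The 5 peaks beside vvl ranged from -1.59 to -0.93, and the 4 beside tsh, a zinc finger gene of the proximal disc, from -1.22 to -0.93.

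Smaller groups stood beside other regulators. The pair between sob and odd, zinc finger genes of 1 family with drm, had 10.1 and 20.8 reads in etomoxir and 58.1 and 60.5 in control (-2.52 and -1.54). Beside Dll, the homeodomain gene of distal appendages, 2 peaks had differences of -1.48 and -2.14. Of the genes whose expression the study followed by in situ hybridisation or named for their peaks, mirr had 3 neighbouring peaks (-1.74 to -1.15), drm 3 (-2.84 to -1.07) and grn 2 (-1.50 and -1.40). Sox15, E5, mamo and zfh2 had 0 listed distal peaks beside them.

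**Figure D4:**
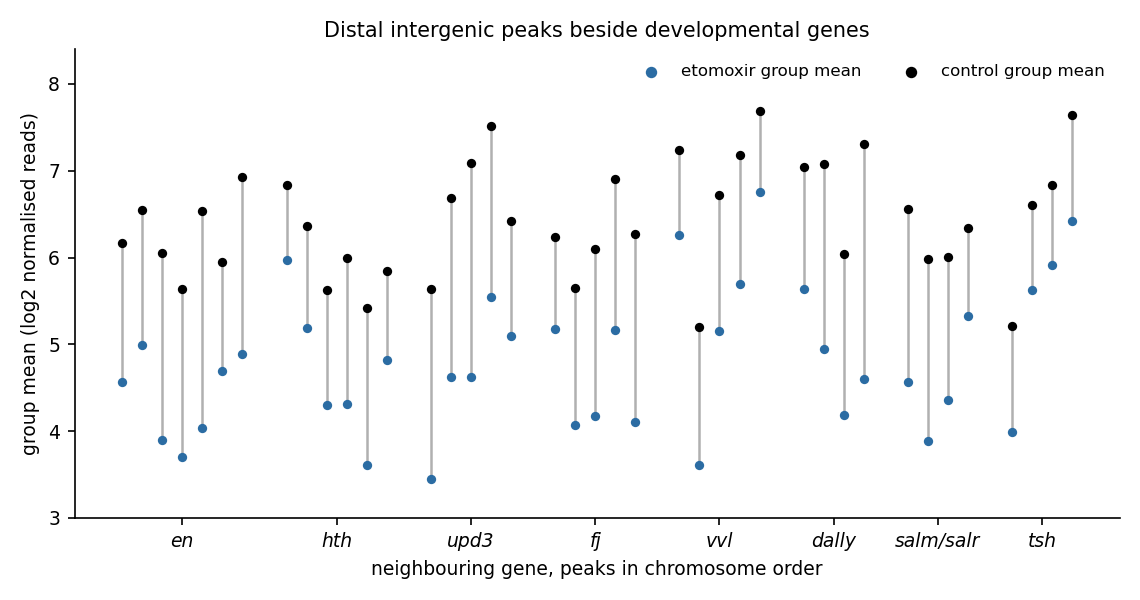
Group means (log2 normalised reads) of the distal intergenic peaks beside the developmental genes with at least 4 such peaks, in chromosome order; blue points are etomoxir, black points control, and a grey line joins the means of a peak. Every etomoxir point lies below its control point, and within a gene the drop varies, as from -2.71 to -1.40 beside dally.

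Where the assigned gene also had a listed promoter peak, both moved together in nearly every case. Such a promoter peak existed for 105 of the 246 lower distal peaks (42.7%, 36.7 to 48.9) and for 45 of the 57 higher ones (78.9%, 66.7 to 87.5). Of 62 genes with lower distal and promoter peaks, the promoter was lower at 61 and higher at 1. Of 26 genes with higher distal peaks, the promoter was higher at 26. Over all listed promoter peaks, 79.9% were lower and 20.1% higher. Of the higher peaks, 80.7% of distal and 45% of promoter ones lay in the centromeric 5 Mb of an arm or on chromosome 4. The part of this shared position was not tested. Only peaks that passed the threshold are listed, so an unchanged promoter could not be counted. Among the 62, the distal median was the deeper at 34, and the medians over genes were -1.47 for distal and -1.34 for promoter peaks. At dally the promoter peak changed by -2.09 beside a distal median of -1.99, and at en by -1.90 beside -1.94. At Pex7 the promoter changed by -0.55 and the distal peaks by -2.12 in the median.

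Increases were weaker, broader and concentrated near centromeres. The median level of the 57 peaks that rose was 218 normalised reads in etomoxir and 113 in control, and the median difference 0.93 (0.82 to 1.03). Differences ran from 0.46 to 2.14, and 23 of the 57 (40.4%) rose by at least 1, beside 50.9% of all listed peaks that rose. These 23 were 7.59% of the 303 distal peaks, and 8.38% of all listed peaks were higher by at least 1. The higher distal peaks had a median width of 1671 bases, a median GC content of 35.5% and a median of 32.6% of bases masked as repeats, beside medians of 774 bases, 46.7% and 13.4% at the lower distal peaks. The other listed peaks differed in the same direction, with 1309 bases, 37.4% and 19.3% at higher peaks and 912 bases, 45.2% and 13.5% at lower ones. The 11 higher distal peaks outside the centromeric stretches had medians of 1227 bases, 37.9% and 16.3%. Most of these 11 lay on 2R between positions 5105702 and 6266772, just past the 5 Mb boundary. The CG9380 peak, at 25273395 on 2R, lay far from it.

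Position separated the directions. In the 5 Mb next to the centromere of each assembled arm lay 46 of the 57 higher distal peaks (80.7%), 12 of the 246 lower ones (4.88%) and 44.8% of the other higher peaks. Chromosome arm 2R held 34 higher and 38 lower distal peaks, and 24 of the 34 were in its centromeric stretch. The other arms together had 23 higher and 208 lower ones, and chromosome 4 had 0 distal peaks. GC content, repeats and position thus moved with the direction, and their part in it was not tested. How reads that map to several places were treated is not given in the sources used here.

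The largest increases were at low levels. The peak assigned to dpr21, an immunoglobulin-domain gene, had 16.4 reads in etomoxir and 3.73 in control (2.14), and that assigned to CG41378 had 16.9 in etomoxir and 4.53 in control (1.90). The next were assigned to lncRNA:CR43256 (1.5), to a gene identifier not matched here whose neighbour is stw (1.36), to RYa, a neuropeptide gene (1.28), and to sxc, the O-GlcNAc transferase (1.24). The sxc peak was at 252 reads in etomoxir and 107 in control. All 6 are on 2R.

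Several genes had groups of higher peaks. Between CG41128 and CG41099 on 3R, 4 neighbouring peaks within 5954 bases had 568, 214, 345 and 218 reads in etomoxir and 274, 108, 186 and 113 in control. They rose by 1.05, 0.99, 0.89 and 0.95, a narrow range for a run. IntS3, an Integrator subunit gene, had 4 peaks with differences of 0.55 to 0.82, and the widest distal peak, of 5057 bases, was one of them. It had 263 reads in etomoxir and 159 in control (0.73). The next widest were assigned to CG40228 (4363 bases, 0.84) and gus (3980 bases, 0.70), and both rose.

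Higher peaks in the centromeric stretches lay far from the assigned start. The median distance was 12566 bases for the 57 higher and 6974 bases for the 246 lower peaks, and the largest 240327 bases and 34783 bases. Outside the centromeric stretches the order turned, with a median of 5615 bases for the 11 higher and 6886 bases for the 234 lower peaks. Most of these 11 lay just past the boundary of the stretch on 2R. From 3 to 5 kb, 66 peaks fell and 11 rose; from 5 to 10 kb, 107 and 14; from 10 to 20 kb, 56 and 16; from 20 to 50 kb, 17 and 11. Beyond 50 kb 0 fell and 5 rose, and these were assigned to DIP-lambda, CG42598, CR41243, CG40228 and CG41378. The size of the decreases showed no such order, with medians of -1.50, -1.46, -1.32 and -1.57 in the 4 classes up to 50 kb.

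**Figure D5:**
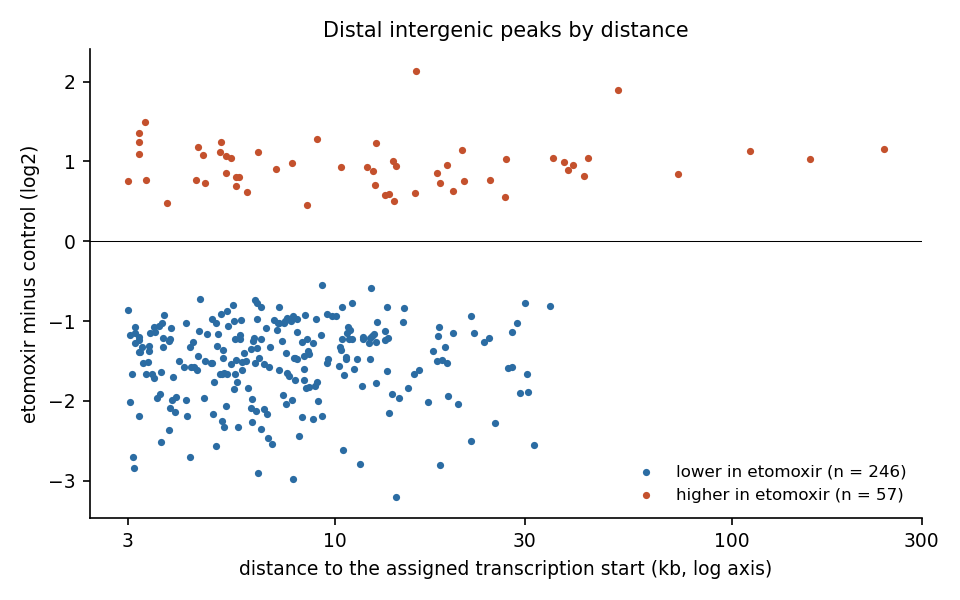
Difference between etomoxir and control group means (log2) of each distal intergenic peak against the distance to its assigned transcription start (kb, log axis); blue points fell and red points rose. Lower peaks end at 34783 bases, and the 5 peaks beyond 50 kb are all higher.

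For each of the 6 motifs, the intervals of the share in lower distal peaks and in other lower peaks overlapped. GAGAG was in the central 300 bases (the whole peak where it was narrower) of 38.6% of lower distal peaks (32.8 to 44.8), 24.6% of higher distal peaks (15.2 to 37.1) and 45.1% of the other lower peaks (42.9 to 47.3). GGAATG was in 17.5%, 14.0% and 15.1% of these sets, and TGACAG in 13.4%, 15.8% and 9.91%. The longer motifs were rare in lower distal peaks, with CAGGTAG in 1.22%, AACCGGTT in 0.813% and CACGTG in 2.03%, and 2.67%, 1.08% and 3.13% in the other lower peaks. Windows of lower distal peaks had a GC content of 48.3% and those of higher distal peaks 34.7%, which by itself alters how often a motif occurs. A match is a match of letters and not a bound site.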

How the data were processed

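H3K18ac Cut&Run data of 5 wing disc libraries, 2 with etomoxir and 3 control, were analysed from 1 table of 2626 peaks. Per the paper's methods and the submitters' processing notes, the authors trimmed reads with Trim Galore 0.6.3, aligned them to dm6 with Bowtie2 2.4.2, called peaks with MACS2 2.1.1.20160309.6, compared groups with DiffBind 2.10.0 and annotated peaks with ChIPseeker 1.18.0. The authors deposited log2 mean normalised read counts for each group and over all libraries, and not for each library. The p-value and FDR columns deposited by the authors come from their test; the FDR served only as a threshold, and their fold changes and p-values were not used. The mean over all libraries equals the group means weighted 3 to 2 (tolerance 0.02) at 100% of peaks. Yeast spike-in DNA was added, and whether it scaled the libraries is not stated. According to the study's reporting summary, one cultured control was sequenced to far more unique reads than the other libraries. Replicates are separate samples by their labels.

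Start positions count from 0 in the table, since 100% of its distances then follow, and 63.3% otherwise; coordinates are printed from 1. Genes were matched to Ensembl release 115 (BDGP 6.54): 98.8% of transcripts were found, 99.8% of those with the same coordinates, while 6 distal peaks had an unmatched gene identifier. Runs join distal peaks with gaps of at most 20000 bases, and repeats are the masked bases of the RefSeq genome. Intervals of medians are order-statistic intervals. The named genes are those of the 8 largest decreases and 6 largest increases, those with at least 4 distal peaks, those of the 5 farthest and 3 widest peaks, list genes with most peaks and the genes the paper names; others were chosen after their values were seen. Members and lists were chosen with earlier results of these data known. Python 3.11.15, numpy 2.4.6, pandas 2.3.3, scipy 1.17.1 and matplotlib 3.10.9 were used, and the helper functions were tested on simulated data.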

Additional observations from a re-analysis of the deposited data

How the results depend on the processing

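The table holds no value per library, so leaving out a replicate was not possible, and background and the spread between libraries are not known. Depth is known only from the study's reporting summary, in which a cultured control had far more unique reads than the other libraries. The part of this depth in the differences was not tested. No paired analysis was possible because the results come from no test and the columns carry no replicate. Of 88 values under alternatives, 65 stayed within the interval of the reported value (counts within 1.5 times), 23 moved and 0 reversed. The cause of these moves was not tested, except that stricter filters keep fewer peaks.

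With an FDR under 0.01, the median decrease was -1.58 and the share of distal peaks with a promoter peak at the assigned gene 39.6%, against 49.5% as reported. With group means at least 1 apart, the median increase was 1.13 and that share 36.1%; with promoter peaks within 1 kb it was 43.9%. Over 5000 bases from the start, the median distance of lower peaks was 8484 bases. Over 10000 bases it was 13644 bases, with 73 lower peaks, a median decrease of -1.32, 69 assigned genes, 13 peaks assigned to developmental genes and a promoter share of 63.8%. Without chromosome 4 and the centromeric stretches, the median increase was 1.08. By the nearest gene on either side of any kind, 378 genes and 56 developmental peaks were counted, and 87 peaks by the nearest protein-coding gene, an alternative added after seeing the data. With Dl, d and ban matched by hand, also added, 27 peaks were assigned to developmental genes and 88 lay beside one. Also added were quartile classes, of which the highest control means had a median decrease of -1.52 and the widest peaks of -1.18.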

Other observations

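Distal peaks with gaps of at most 20000 bases formed 178 runs, of which 61 held 2 or more peaks and all 61 moved in 1 direction. Runs over all listed peaks were not counted. The peaks of a run share their position, which moved with direction, and its part was not tested. There were 17 runs of at least 4 peaks, 15 lower and 2 higher, and several lie beside genes outside the developmental lists. The largest, of 9 peaks over 37694 bases of 3L, was assigned to CG43245, with 362 reads in etomoxir and 970 in control added up over the run and differences of -2.56 to -1.02. Next to it, 4 peaks assigned to NijA (Ninjurin A, a cell surface protein) changed by -1.61 to -1.26, with 132 reads in etomoxir and 339 in control. A run of 6 peaks between CG15258 and CG44869 on 2L had 211 reads in etomoxir and 811 in control (-2.91 to -1.34).

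A run of 5 peaks around CG7320 changed by -2.23 to -0.94, with 177 reads in etomoxir and 452 in control, and 1 of them (-1.57) lies between CG7320 and the cell death gene hid. A run of 5 peaks on both sides of Prx1, between CG7011 and Tollo, had 142 reads in etomoxir and 431 in control (-1.97 to -1.11). Between CG43336 and pxb on 3R, 5 peaks had 135 reads in etomoxir and 334 in control (-1.91 to -1.11). These runs were picked by their number of peaks, and no test was made of them.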
